A study of Homo sapiens with 4 samples.

Results

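The MYC, MAX and MXD network was described through 9 genes, chosen with earlier results of these data known. Looked up in the expression tables by symbol, they were MYC, MAX, MXI1, MXD1, MXD3, MXD4, MNT, MGA and MLX. They are 9 of the 26255 symbols listed, and all 9 were among the 12663 genes whose mean reached 1 FPKM (sequenced fragments per kilobase of transcript and relative to depth) over the libraries, the level below which a gene was counted as not expressed. MYC is a basic helix-loop-helix leucine zipper factor that binds E-box DNA, with the core CACGTG, only as a heterodimer with MAX, and activates genes of ribosome assembly, metabolism and cell division. The MXD proteins, MNT and MGA pair with the same MAX and occupy the same sites, where MXD and MNT dimers recruit the SIN3 and histone deacetylase corepressor and MGA brings a Polycomb-type complex. MLX is a MAX-like partner that also pairs with some of the antagonists and with the glucose-sensing factors MLXIP and MLXIPL. MXI1 is a known target of the hypoxia-inducible factors (HIF), the oxygen-regulated activators that bind the core ACGTG or GCGTG, and it is known for opposing MYC in hypoxic cells.

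All libraries came from A549, an established human lung adenocarcinoma cell line for which the labels name no engineered change. Cells were grown for 5 days with 5% serum in each of 4 groups. The groups were 3D culture on gelled Matrigel, a basement membrane extract, in normoxia; 3D culture in hypoxia at 1% oxygen; 2D culture on a dish in normoxia; and 2D culture in hypoxia at 1% oxygen. Each group held 1 library, so a pair of groups was compared by size only while limma tested the average oxygen and culture effects on 1 residual degree of freedom. The only residual of that fit is the difference between the hypoxia responses in 3D and 2D, which limma moderates over all genes. A p-value here is set against that residual and does not measure a spread between replicates. The labels do not call the libraries separate cultures, so differences between these 4 libraries may be technical.

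The FPKM values of a library summed to between 473503 and 596102, and between 7929 and 9276 symbols were listed at 0. Depth, inferred from the commonest low values, came to about 11800000 and 11400000 fragments in the 3D libraries (normoxia, hypoxia) and about 23900000 and 38600000 in the 2D libraries, so it moved with culture. The oxygen labels were checked with HIF targets, a list chosen with earlier results of these data known. In that list 11 of 11 expressed genes rose in hypoxia by limma, against 3.2% of all genes. CA9, a carbonic anhydrase, rose from 4.05 to 199.7 FPKM in 3D and from 3.999 to 138.5 FPKM in 2D. Epithelial markers (EPCAM, CDH1 and 4 keratins) were all expressed, with summed levels of 5205 to 8316 FPKM, mostly from KRT8, KRT18 and KRT7. EPCAM was low, at 2.08 (normoxia) and 1.43 FPKM (hypoxia) in 3D and 2.69 and 2.73 FPKM in 2D, below the blood marker CD14 in each library. Of 6 blood markers 5 were below a mean of 1 FPKM, the exception being CD14, with summed levels of 3.63 to 12.3 FPKM and CD3E at 0 throughout. Of 7 endothelial and fibroblast markers 6 were below that mean, with summed levels of 0.84 to 13.4 FPKM, the highest in 2D hypoxia through COL1A1.

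Among the members, MXI1 and MXD4 rose in hypoxia by limma and were also higher in 3D than in 2D, so that both had their highest level in 3D hypoxia. The hypoxia call of MXD4 held in only 4 of 9 settings. MYC itself was higher in hypoxia in both cultures, by 1.63-fold in 3D and 1.43-fold in 2D, without passing the test. Its average log2 hypoxia difference of 0.60 was close to the 0.59 of MXD4, and MYC passed in 2 of the 9 settings. The average hypoxia differences of MAX and MLX were below 0 and did not pass. MGA was the member that fell in 3D. MXD3 and MNT had differences of opposite sign in the 2 cultures or at the 2 oxygen levels, which have no test. In bulk RNA, fewer cells in a state and less RNA per cell cannot be told apart, for the members as for every list described.

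**Figure D1:**
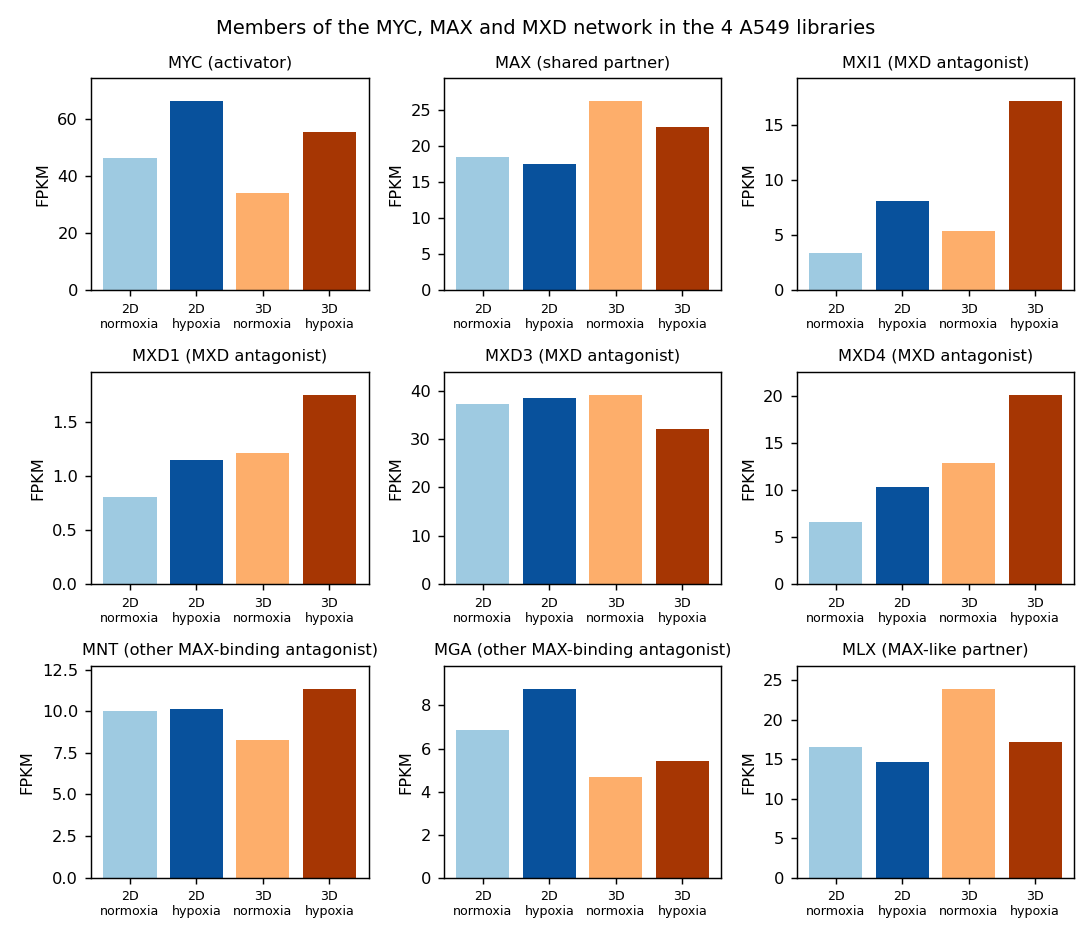
FPKM of the 9 members in the 4 libraries, 1 bar per library, each panel on its own linear axis from 0; there are no replicates and so no error bars. MXI1 spans 3.41 to 17.2 FPKM with its highest bar in 3D hypoxia, while MXD3 stays between 32.1 and 39.1 FPKM.

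MYC stood at 34.0 (normoxia) and 55.5 FPKM (hypoxia) in 3D culture and 46.2 and 66.2 FPKM in 2D culture. Both hypoxia libraries were above both normoxia libraries, and at either oxygen level the 2D library was above the 3D library. On the scale of log2(FPKM + 1), used for all differences here, the hypoxia difference was 0.69 ± 0.077 in 3D and 0.51 ± 0.044 in 2D (± is a counting SE from the inferred depth and covers counting error only). The average hypoxia difference of 0.60 ± 0.12 (SE) had an adjusted p of 0.0563 in limma, with a range of 0.0236 to 0.142 over the reported and 8 alternative settings, and passed in 2 of these 9. The 3D minus 2D difference averaged -0.34 ± 0.12 (limma adjusted p = 0.0935). Of its paralogs, MYCN was not expressed and MYCL, a MYC relative of some lung cancers, was low at 0.820, 1.69, 1.00 and 1.10 FPKM in the order above.

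MAX, the obligate partner of MYC and a shared partner of its antagonists, was at 26.2 and 22.6 FPKM in the 3D libraries (normoxia, hypoxia) and 18.4 and 17.5 FPKM in the 2D libraries. Both 3D libraries were above both 2D libraries, and the oxygen pairs differed by -0.20 ± 0.14 in 3D and -0.07 ± 0.097 in 2D, within 2 counting SEs of 0 in each culture. The 3D minus 2D difference averaged 0.42 ± 0.12 (limma adjusted p = 0.0529) and the hypoxia difference -0.14 ± 0.12 (limma adjusted p = 0.503), so neither passed. The culture difference of MAX passed limma in 2 of the 9 settings, with adjusted p between 0.0333 and 0.174.

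MXI1, the MXD-family repressor also named MAX interactor 1, reached 5.34 FPKM in normoxia and 17.2 in hypoxia in 3D, against 3.41 and 8.10 in 2D. The hypoxia library was above its normoxia partner in each culture and the 3D library above its 2D partner at each oxygen level. The FPKM ratio of hypoxia to normoxia was 3.21 in 3D and 2.38 in 2D, or 1.52 ± 0.19 and 1.05 ± 0.15 on the log2(FPKM + 1) scale, above 98.9% and 98.2% of all genes tested. MXI1 rose by 1.28 ± 0.15 (SE) on average in hypoxia, 2.43-fold (limma adjusted p = 0.0189), and by 0.76 ± 0.15 in 3D over 2D, 1.69-fold (limma adjusted p = 0.0256). The hypoxia difference was larger by 0.47 ± 0.25 in 3D than in 2D, less than 2 counting SEs from 0 and with no test possible at 1 library a group. The levels rest on an estimated 56.1 fragments in 3D normoxia and 72.3 in 2D normoxia against 173.2 and 278.4 in hypoxia. These estimates take a length of 889 bases, the median of the annotated coding transcripts of MXI1. A longer transcript would mean more fragments and smaller counting SEs, so the reading against 2 counting SEs depends on that length.

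The windows before the annotated MXI1 and MXD4 starts are shown because these were the 2 members past the limma threshold for hypoxia, MXD4 narrowly. RefSeq (GRCh38.p14) gave windows for 8 of the 9 members, 13 in all; the 250 bases before each start were searched on both strands for the E-box CACGTG and the HIF cores ACGTG and GCGTG, where every CACGTG also holds ACGTG on each strand. MXI1 has 3 such starts on the plus strand of chromosome 10, at chr10:110207355-110207604, chr10:110209981-110210230 and chr10:110225746-110225995, and MXD4 has 1 on the minus strand of chromosome 4, at chr4:2262110-2262359. Each sequence is given 5′ to 3′ in the direction of the gene and ends at the base before the start, with matches in capitals.
MXI1 start 1: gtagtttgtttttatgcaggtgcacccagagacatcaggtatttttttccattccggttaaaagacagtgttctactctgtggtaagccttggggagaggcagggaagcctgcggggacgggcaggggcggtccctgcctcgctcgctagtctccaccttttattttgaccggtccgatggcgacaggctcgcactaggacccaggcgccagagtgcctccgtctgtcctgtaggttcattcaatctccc
MXI1 start 2: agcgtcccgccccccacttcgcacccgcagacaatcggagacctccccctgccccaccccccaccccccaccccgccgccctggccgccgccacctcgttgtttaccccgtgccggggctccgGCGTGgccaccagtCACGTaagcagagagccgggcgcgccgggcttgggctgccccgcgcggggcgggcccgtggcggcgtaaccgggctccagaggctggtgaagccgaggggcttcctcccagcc
MXI1 start 3: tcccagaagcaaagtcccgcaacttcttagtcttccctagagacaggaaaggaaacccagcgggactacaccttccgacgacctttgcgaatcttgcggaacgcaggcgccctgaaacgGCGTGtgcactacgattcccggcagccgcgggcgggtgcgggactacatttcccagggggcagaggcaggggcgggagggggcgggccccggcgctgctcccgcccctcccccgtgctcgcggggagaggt
MXD4: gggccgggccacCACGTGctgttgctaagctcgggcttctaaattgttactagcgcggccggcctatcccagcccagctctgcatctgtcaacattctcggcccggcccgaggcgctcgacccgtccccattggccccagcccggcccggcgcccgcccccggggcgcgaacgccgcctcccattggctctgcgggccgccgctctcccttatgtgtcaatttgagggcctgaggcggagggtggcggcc
The capitals in MXI1 start 2 are GCGTG at 127 bases and CACGT, the reverse complement of ACGTG, at 113 bases before the start. The capitals in MXI1 start 3 are GCGTG at 131 bases, and start 1 held no match. The capitals in MXD4 are the palindrome CACGTG at 238 bases. Over the members, CACGTG was in 3 of the 13 windows (MXD4, MNT and MLX), ACGTG in 6 and GCGTG in 6. Among 13766 windows of expressed genes the shares were 8.24%, 22.5% and 43.7%, and among all 35116 windows 6.34%, 18.5% and 32.2%. These matches describe letters only, and the FPKM values, which are per symbol, do not tell which MXI1 start was used.

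MXD1, the founding MXD repressor, was the lowest member, at 1.22 (normoxia) and 1.76 FPKM (hypoxia) in 3D culture and 0.811 and 1.15 FPKM in 2D culture. Its order over the libraries was that of MXI1 except that 3D normoxia lay above 2D hypoxia. The average differences were 0.28 ± 0.18 for hypoxia (limma adjusted p = 0.375) and 0.32 ± 0.18 for 3D over 2D (limma adjusted p = 0.231), and at this level the added 1 FPKM lowers every difference.

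MXD3, an MXD repressor known from proliferating cells, was at 39.1 and 32.1 FPKM in the 3D libraries (normoxia, hypoxia) and 37.2 and 38.5 FPKM in the 2D libraries. Only the 3D hypoxia library stood lower, and the other 3 lay within 2 FPKM of each other. The hypoxia difference was -0.28 ± 0.091 in 3D and 0.05 ± 0.055 in 2D, and the averages did not pass (hypoxia -0.11 ± 0.13, limma adjusted p = 0.635; culture -0.09 ± 0.13, limma adjusted p = 0.636). The small positive value turned to -0.08 with equal-sum rescaling, which set the FPKM sum of each library to 1000000. In GENCODE 29, MXD3 shares 22.5% of its exonic bases with PRELID1 on the opposite strand, itself at 105.3 to 152.3 FPKM, and 17.97% with RAB24 on the same strand, at 22.6 to 30.5 FPKM. The sources used here do not give the strand setting of the counting, so reads of MXD3 and these neighbours may not be told apart. With hypoxia PRELID1 differed by -0.39 in 3D and -0.21 in 2D and RAB24 by -0.28 and -0.32, so both were below 0 in 2D where MXD3 was at 0.05. Their part in the MXD3 value was not tested.

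MXD4, an MXD repressor known from differentiating cells, reached 12.9 FPKM in normoxia and 20.2 in hypoxia in 3D, against 6.62 and 10.4 in 2D. Both 3D libraries were above both 2D libraries, and hypoxia was above normoxia in each culture by nearly the same ratio, 1.56 in 3D and 1.57 in 2D. MXD4 rose by 0.88 ± 0.11 (SE) in 3D over 2D, 1.84-fold (limma adjusted p = 0.0110), the largest average culture difference among the members, and by 0.59 ± 0.11 in hypoxia, 1.51-fold (limma adjusted p = 0.0482). The hypoxia call held in 4 of the 9 settings, with adjusted p between 0.0213 and 0.150 in limma. The difference of its hypoxia responses was 0.03, so the pair ratios were alike within their counting errors of 0.070 and 0.059.

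MNT, the broadly expressed MAX partner that represses MYC targets, was at 8.25 (normoxia) and 11.4 FPKM (hypoxia) in 3D culture and 10.0 and 10.1 FPKM in 2D culture. The 2D libraries were level, at a difference of 0.02 ± 0.064, while the 3D libraries differed by 0.42 ± 0.10. The averages did not pass (hypoxia 0.22 ± 0.14, limma adjusted p = 0.379; culture -0.05 ± 0.14, limma adjusted p = 0.807), and the gap of 0.40 ± 0.12 between the responses has no test. Rescaling to an equal sum gave -0.11 for the 2D difference.

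MGA, the large MAX partner that also carries a T-box domain, was at 4.66 and 5.43 FPKM in the 3D libraries (normoxia, hypoxia) and 6.84 and 8.78 FPKM in the 2D libraries. Both 3D libraries were below both 2D libraries. MGA fell by 0.54 ± 0.12 (SE) in 3D against 2D on the log2 scale, to 0.689 of the 2D level (limma adjusted p = 0.0332), and its hypoxia difference of 0.25 ± 0.12 did not pass (limma adjusted p = 0.261).

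MLX reached 23.9 FPKM in normoxia and 17.1 in hypoxia in 3D, against 16.5 and 14.7 in 2D. The 3D normoxia library stood above the other 3. The averages were -0.31 ± 0.13 for hypoxia (limma adjusted p = 0.203) and 0.36 ± 0.13 for 3D over 2D (limma adjusted p = 0.0957). MLX shares 18.1% of its exonic bases with PSMC3IP on the opposite strand, at 11.6 to 22.3 FPKM, and the same limit on strand applies. PSMC3IP differed by -0.46 with hypoxia in 3D, where MLX did too, but by -0.43 in 2D (MLX -0.16) and, for 3D minus 2D, by -0.43 in normoxia and -0.46 in hypoxia (MLX 0.51 and 0.21). Its part in the MLX value was not tested.

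The members were chosen with earlier results of these data known, so their counts beside the shares of all genes are no test of the group. Read as a group, 2 of the 9 members rose on average in hypoxia by limma, against 3.2% of the 12663 genes tested, and 0 fell, against 1.64%. At an unadjusted p under 0.05 limma took 3 members, MYC being the third, all higher in hypoxia, and 25.6% of all genes in both directions together. The median of the members was 0.25 against -0.01 over all genes, with 6 members above 0 and 3 below. For culture, 2 rose in 3D, against 10.4% of all genes, and 1 fell, against 11.6%, with a median of 0.32 against -0.03; at an unadjusted p under 0.05 limma took 6 members and 40.3% of all genes. Without a filter on low values limma called 0 members in either effect. Depth was lower in both 3D libraries, and its part in the culture differences was not tested. Equal-sum rescaling moved the median of all genes to -0.14 for hypoxia and -0.21 for culture. It took the share of higher genes among all limma calls from 66.1% to 38.9% for hypoxia and from 47.1% to 19.7% for culture.

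In the separate pairs, a difference of at least 2-fold on the log2(FPKM + 1) scale was reached by MXI1 alone. In 3D, hypoxia was at least 2-fold higher for 1 of 9 members and 2.91% of all genes, and 2-fold lower for 0 members and 1.11%. In 2D the counts were 1 of 9 and 2.01% higher, and 0 and 1.59% lower. For 3D against 2D, 0 members passed 2-fold in normoxia (1.98% of all genes higher, 2.49% lower) or in hypoxia (3.8% higher, 3.02% lower), where MXI1 lay nearest: its FPKM ratio was 2.12 in hypoxia and its log2(FPKM + 1) difference 1.00 ± 0.13, just under the limit. The difference between the hypoxia responses of the cultures passed 2-fold for 0 members, 1.87% of genes upward and 0.861% downward. With equal-sum rescaling, the share of higher genes among those past 2-fold went from 72.3% to 58.1% for hypoxia in 3D and from 55.9% to 40.9% in 2D, and for 3D against 2D from 44.3% to 21.7% in normoxia and from 55.7% to 35.8% in hypoxia. The oxygen and culture pairs share libraries, so their values are set side by side and are not independent.

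**Figure D2:**
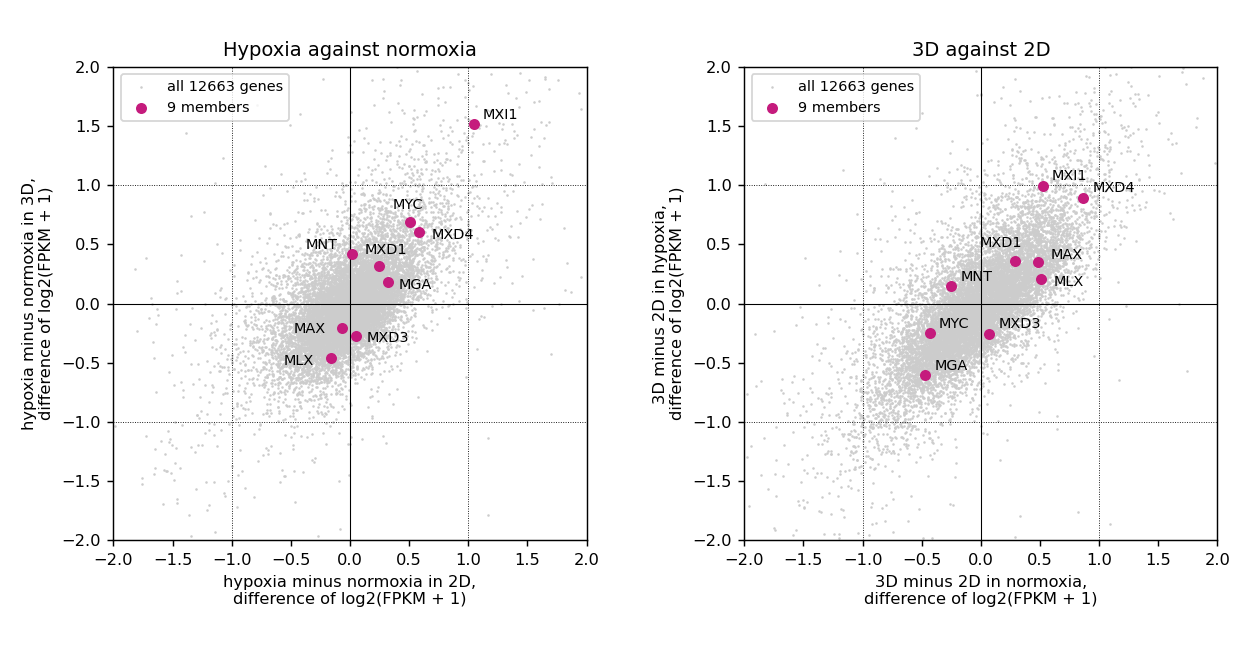
Differences of log2(FPKM + 1) for all 12663 genes (grey; those beyond 2 on either axis lie outside the frame) and the 9 members (coloured), hypoxia minus normoxia in 3D against 2D on the left and 3D minus 2D in hypoxia against normoxia on the right, with dotted lines at 2-fold. MXI1 lies at 1.05 and 1.52 on the left, past both dotted lines, and MXI1 and MXD4 lie highest of the members on the right.

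Because FPKM is per transcript length, levels could also be compared between members within a library, where no rescaling of a library changes a ratio. By mean level the order was MYC (50.5 FPKM), MXD3 (36.7), MAX (21.2), MLX (18.05), MXD4 (12.5), MNT (9.94), MXI1 (8.50), MGA (6.43) and MXD1 (1.23). The ranges over the 4 libraries overlapped for 6 of the 8 neighbouring pairs in that order, and were apart for MXD3 against MAX and for MGA against MXD1. MXI1 was the seventh member in 3D normoxia, the eighth in both 2D libraries and the fifth in 3D hypoxia, where it was within 2 counting SEs of MLX and MXD4. MYC was the highest member in every library except 3D normoxia, where MXD3 was higher.

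The level of MXI1 per MYC was 0.157 (normoxia) and 0.309 (hypoxia) in 3D and 0.0738 and 0.122 in 2D. The ratio was therefore higher in hypoxia by 1.97-fold in 3D and 1.66-fold in 2D, although MYC was itself higher there, and higher in 3D by 2.13-fold in normoxia and 2.53-fold in hypoxia. Summed over the 6 antagonists MXI1, MXD1, MXD3, MXD4, MNT and MGA, the level was 71.5, 88.0, 64.9 and 77.1 FPKM in the same order, or 2.102, 1.59, 1.40 and 1.16 per MYC. The sum per MYC was thus lower in hypoxia, at 0.755 of normoxia in 3D and 0.828 in 2D, the opposite direction to MXI1 per MYC. Without MXD3, the largest term and a gene that overlaps others, the ratios were 0.952 and 1.01 in 3D, where hypoxia was then the higher, and 0.600 and 0.582 in 2D. MXI1 made up 7.47% of the summed antagonists in 3D normoxia and 19.5% in 3D hypoxia, and 5.25% and 10.5% in 2D. The level of MYC per MAX was 1.30 (normoxia) and 2.45 (hypoxia) in 3D and 2.51 and 3.78 in 2D. RNA levels do not measure how much MAX protein each factor holds.

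**Figure D3:**
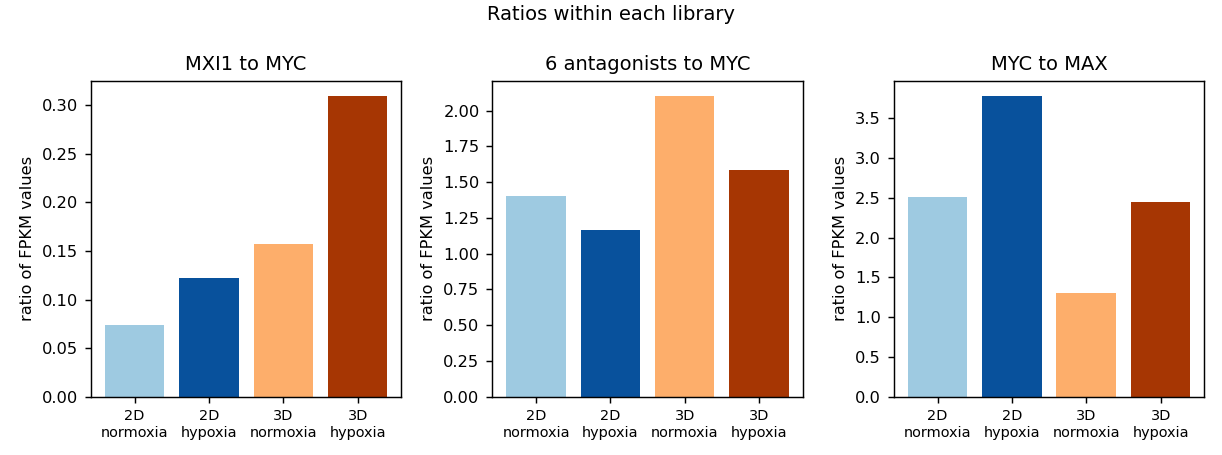
Ratios of FPKM values within each of the 4 libraries, 1 bar per library from 0, for MXI1 per MYC, the 6 summed antagonists per MYC and MYC per MAX; there are no replicates and so no error bars. MXI1 per MYC is highest in 3D hypoxia at 0.309, the summed antagonists per MYC in 3D normoxia at 2.102 and MYC per MAX in 2D hypoxia at 3.78.

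Genes with the pattern most like MXI1 were sought among 9004 genes whose mean reached 5 FPKM, without small RNA genes and uncharacterised loci (symbol prefixes LINC, LOC, MIR, RN7, RNA5, RNU, SCARNA and SNOR), by Euclidean distance of centred log2(FPKM + 1) over the 4 libraries. BIRC3, an inhibitor of apoptosis protein, was nearest at a distance of 0.0534, with 9.53, 27.7, 6.20 and 13.8 FPKM in the same order of libraries. It was followed by C4orf3 (0.179), PPP1R3C, a glycogen-targeting subunit of protein phosphatase 1 (0.196), and DDIT4, an inhibitor of mTORC1 signalling (0.251). DDIT4 was at a far higher level, 144.5, 415.7, 95.8 and 249.6 FPKM, with the same order of libraries. Nearest to MXD4 was EPB41L4A-AS1, a non-coding host of a small nucleolar RNA, at 0.0331, with 13.6, 21.6, 6.92 and 10.9 FPKM, followed by TPD52 (0.139), RPL12, a ribosomal protein gene (0.141), and SELM (0.141). With 4 libraries, many genes can share an order, and the distances describe these libraries only.

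Of 4 partners and targets of MLX, 3 were expressed. For hypoxia 0 of 3 passed limma, with 2 at an unadjusted p under 0.05, against 25.6% of all genes. For culture 1 of 3 rose by limma, against 10.4% of all genes. MLXIPL, the carbohydrate-response factor ChREBP, was at 5.15 (normoxia) and 2.79 FPKM (hypoxia) in 3D culture and 2.53 and 1.23 FPKM in 2D culture. It rose in 3D over 2D by 0.78 (limma adjusted p = 0.0216), and its hypoxia difference of -0.68 did not pass (limma adjusted p = 0.0630). TXNIP, a glucose-responsive target of the MLX dimers, was at 1.31, 3.79, 0.944 and 0.493 FPKM, so its hypoxia difference was 1.05 in 3D and -0.38 in 2D, with neither average past the limma threshold.

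MYC works through chromatin coactivators. Of 14 expressed members 4 fell and 0 rose in 3D by limma (against 11.6% and 10.4% of all genes), with a median of -0.30 against -0.03 over all genes and 12 of 14 below 0. These were TRRAP, the scaffold of histone acetyltransferase complexes (-0.83, limma adjusted p = 0.0121), EP400, a chromatin remodeller (-0.76, limma adjusted p = 0.0138), HCFC1, a chromatin-bound cofactor (-0.58, limma adjusted p = 0.0244) and the acetyltransferase EP300 (-0.44, limma adjusted p = 0.0455). TRRAP was at 10.4 and 8.91 FPKM in the 3D libraries and 19.5 and 16.4 FPKM in the 2D libraries. None passed for hypoxia in limma, with a median of -0.08. At an unadjusted p under 0.05 limma took 1 of 14, the acetyltransferase KAT2A at -0.40, against 25.6% of all genes.

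Of 12 genes that control MYC stability, 4 fell in 3D by limma, against 11.6% of all genes, with a median of -0.20 against -0.03. The genes that fell were AURKA, a mitotic kinase known to stabilise MYC proteins (-1.05, limma adjusted p = 0.00918), KIAA1524, an inhibitor of the phosphatase PP2A (-0.91, limma adjusted p = 0.0116), and the ubiquitin ligase genes HUWE1 (-0.78, limma adjusted p = 0.0137) and SKP2 (-0.54, limma adjusted p = 0.0313). The list therefore mixes stabilising and destabilising factors among the genes that fell. For hypoxia 0 of 12 passed limma, and the median was -0.01 against -0.01 over all genes. At an unadjusted p under 0.05 limma took 3 of 12 for hypoxia, a share near the 25.6% of all genes.

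The SIN3 corepressor, recruited by MXD and MNT, had 2 of 15 members that fell in 3D by limma, a share near the 11.6% of all genes: SIN3B, a scaffold (-0.44, adjusted p = 0.0468), and ARID4B, another subunit (-0.43, adjusted p = 0.0484). Its median was -0.06 for culture and -0.04 for hypoxia, where 0 of 15 passed limma. At an unadjusted p under 0.05 limma took 2 of 15 for hypoxia, against 25.6% of all genes. The subunits SAP30 (hypoxia in 3D 0.70, in 2D 0.18) and BRMS1 (-0.44 and -0.18) differed most in the 3D pair. Of 9 members of the Polycomb-type complex of MGA, 0 passed limma in either effect. At an unadjusted p under 0.05 limma took 3 for hypoxia and 0 for culture, against 25.6% and 40.3% of all genes. The medians were 0.15 for hypoxia and 0.06 for culture, which became 0.021 and -0.13 with equal-sum rescaling. L3MBTL2, a chromatin reader of that complex, was at 13.6 FPKM in 3D normoxia and 7.50 in 3D hypoxia against 11.8 and 10.1 in 2D. PCGF6, a Polycomb ring finger protein of the same complex, differed by -0.35 with hypoxia in 3D and by -0.07 in 2D.

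Of 20 known MYC targets of nucleolus and ribosome assembly, 19 were below 0 in the average hypoxia difference, with a median of -0.23 against -0.01 over all genes, and the pair medians were -0.25 in 3D and -0.19 in 2D, where 3 genes were above 0. NPM1, nucleophosmin, named after its values were seen, differed by 0.23 with hypoxia in 3D and 0.10 in 2D. By limma 0 of 20 passed for hypoxia. At an unadjusted p under 0.05 limma took 6, all lower, against 25.6% of all genes in both directions together. By adjusted p 3 appeared as lower when small RNA genes and genes listed at 0 were left out or libraries were rescaled to an equal sum. NOP16, a nucleolar protein, was at 69.95 FPKM in 3D normoxia and 47.5 in 3D hypoxia, and at 58.7 and 50.5 in 2D. In 3D against 2D, 3 of 20 fell by limma, a share near the 11.6% of all genes: NOP2, an rRNA methyltransferase (-0.64, adjusted p = 0.0253), RRP12, a ribosome assembly factor (-0.62, adjusted p = 0.0206), and NOLC1, a nucleolar phosphoprotein (-0.56, adjusted p = 0.0287), with a median of -0.18.

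Among 19 expressed MYC targets of growth and metabolism, 1 rose in hypoxia and 0 fell by limma, against 3.2% and 1.64% of all genes. The median was -0.18 against -0.01 over all genes. At an unadjusted p under 0.05 limma took 3 as higher and 3 as lower, against 25.6% of all genes in both directions together. The gene that rose was LDHA, lactate dehydrogenase A and also a HIF target, at 724.6 and 2295 FPKM in the 3D libraries (normoxia, hypoxia) and 708.1 and 1911 FPKM in the 2D libraries (1.55, limma adjusted p = 0.0125). ODC1, the ornithine decarboxylase of polyamine synthesis, was at 61.8 and 32.5 FPKM in 3D and 46.6 and 38.2 FPKM in 2D, and its average of -0.59 did not pass (limma adjusted p = 0.113). In 3D against 2D 5 of 19 fell and 0 rose by limma, against 11.6% and 10.4% of all genes. They were TERT, telomerase (-0.99, adjusted p = 0.0245), MCM5, of the replicative helicase (-0.93, adjusted p = 0.0109), the cell cycle phosphatase CDC25A (-0.91, adjusted p = 0.0149), CAD, of pyrimidine synthesis (-0.64, adjusted p = 0.0200), and the transferrin receptor TFRC (-0.60, adjusted p = 0.0309). TERT was at 0.383 and 0.588 FPKM in 3D against 2.03 and 1.84 in 2D.

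Of 6 expressed genes known to be repressed by MYC, 1 rose in hypoxia and 0 fell by limma, against 3.2% and 1.64% of all genes. The gene that rose was NDRG1, a stress-response gene that is also a HIF target (3.54, limma adjusted p = 0.00605). At an unadjusted p under 0.05 limma took 2 as higher and 3 as lower, against 25.6% of all genes in both directions together. The median of the list was -0.49 against -0.01 over all genes. With equal-sum rescaling 2 of the 6 fell, as did 2 when small RNA genes and genes listed at 0 were left out. When the mean had to reach 5 FPKM, 1 of the 5 genes left fell. CDKN1A, the cell cycle inhibitor p21, reached 40.1 FPKM in normoxia and 14.0 in hypoxia in 3D, against 28.8 and 19.2 in 2D; its hypoxia average of -1.01 did not pass (limma adjusted p = 0.0655). In 3D over 2D, 2 of the 6 rose and 0 fell by limma, against 10.4% and 11.6% of all genes. They were CDKN1B, the inhibitor p27 (0.68, limma adjusted p = 0.0311), and CEBPA, a differentiation factor (0.68, limma adjusted p = 0.0202). The list median for culture was 0.47 against -0.03 over all genes. Among 8 expressed factors of other families that also bind CACGTG, BHLHE40, a circadian and hypoxia-responsive repressor, rose in hypoxia (1.24, limma adjusted p = 0.0128), from 65.0 to 167.4 FPKM in 3D and from 70.9 to 155.3 FPKM in 2D. USF2, an upstream stimulatory factor, rose in 3D over 2D (0.51, limma adjusted p = 0.0393), and MITF was at 5.76 and 10.2 FPKM in 3D and 6.22 and 9.18 FPKM in 2D (hypoxia 0.61, limma adjusted p = 0.0590). Without a filter on low values each of these list calls was lost, HIF targets CA9 and EGLN3 excepted. Among the 8 alternatives, EP300, SIN3B, ARID4B and USF2 were lost in 3 each and CDKN1B in 2, and no call changed sign.

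**Figure D4:**
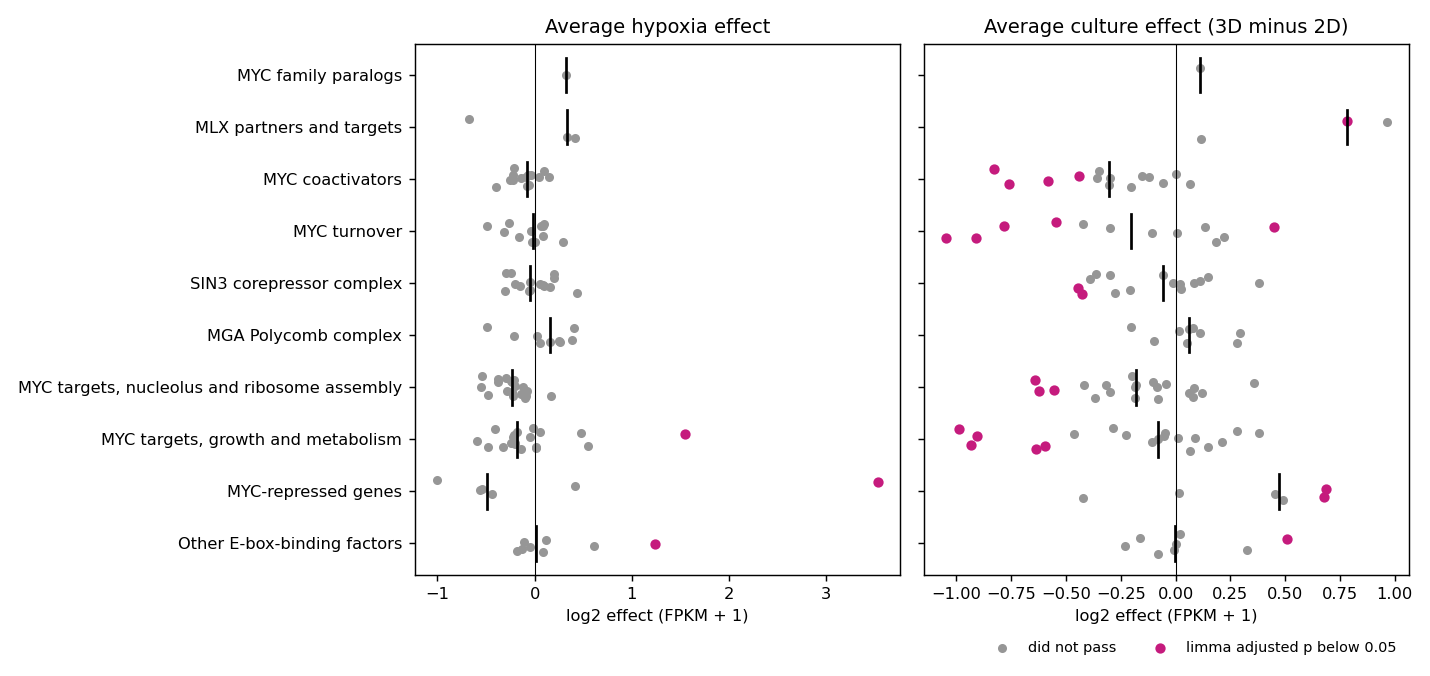
Average log2 effect of hypoxia (left) and of 3D over 2D culture (right) for each expressed gene of 10 lists around the network, 1 point per gene with vertical jitter only for display; coloured points passed limma at an adjusted p below 0.05 and black bars mark list medians. The nucleolar targets lie below 0 for hypoxia in 19 of 20 genes, and the coloured culture points of the coactivators and of both target lists all lie below 0.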

How the data were processed

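Messenger RNA of A549 was sequenced in 4 libraries, 1 per group. A miRNeasy Micro kit served for RNA and a TruSeq Stranded mRNA kit for the libraries, per the labels' protocols. TopHat2 2.1.1, Bowtie2 2.2.8, SAMtools 0.1.18, Cuffdiff 2.2.1 and the hg19 build are named, per the submitters' processing notes. Not given in these sources are the annotation, library scaling, strand setting and depth. For each symbol and library the authors deposited a value in FPKM, and no count model was used.

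Values were taken as log2(FPKM + 1) for genes whose mean reached 1 FPKM, which understates differences of low genes. Pairs were described by size (2-fold). Average oxygen and culture effects were fitted with limma 3.58.1 in R 4.3.3 (trend, both terms additive, 1 residual degree of freedom, Benjamini-Hochberg adjustment over all genes, 0.05). The fit was tested on 10 simulated sets of 12663 genes. There limma recovered 80.5% of the 2-fold and 98.3% of the 4-fold hypoxia changes put in. On average 26.5 unchanged genes a set were also called. Only a small part of the genes of a set had been changed. These false calls were therefore a larger share of all calls than the threshold of 0.05 names. The sets were given no culture effect and no difference between the hypoxia responses, so those cases were not tested. Depth was inferred from 2135 genes with a single GENCODE 29 transcript over 1000 bases, of which only 73, 88, 92 and 76 lay near the value taken as 1 fragment, so depths and counting errors are estimates. Fragments of a member were estimated with the median length of its GENCODE 29 coding transcripts. That length was short for MAX (746.5 bases) and MXI1 (889 bases), and the transcripts expressed are not known. The members and gene lists were chosen with earlier results of these data known. The text names all members, the list genes past limma, the 2 of each list with the largest hypoxia difference in 3D, and the 4 genes nearest to MXI1 and to MXD4. Of the HIF targets and cell markers, which served as checks, only some genes past limma are named. A result of the list on MYC stability is not reported here. Alternatives changed the pseudocount, scaling, filter, trend and fold size. Sequences and starts are from RefSeq (GRCh38.p14). Other steps used matplotlib 3.10.9, scipy 1.17.1, pandas 2.3.3 and numpy 2.4.6 in Python 3.11.15.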

Additional observations from a re-analysis of the deposited data

Results flagged for a closer look

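MXD3 was lower in hypoxia in 3D (-0.28 on the log2 scale) and slightly higher in 2D (0.05). The same libraries put MXD3 slightly higher in 3D than in 2D in normoxia (0.071) and lower in hypoxia (-0.25). MNT was lower in 3D than in 2D in normoxia (-0.25) and higher in hypoxia (0.15). Each was listed because the signs were opposite, and with 1 library in each group the difference was not tested. With libraries rescaled to an equal sum, the 3 values above 0 became -0.08, -0.12 and -0.03, so the signs were no longer opposite.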

How the results depend on the processing

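Over 8 alternative settings, 142 values of the members' average effects kept their sign; 128 also kept their side of the limma threshold, 9 lost it and 5 gained it. The number of members that rose in hypoxia, reported as 2, was 1 with a pseudocount of 0.5 FPKM, equal-sum rescaling, equal upper quartiles or limma without trend, where MXD4 was lost each time, and 0 with no filter on low values. Without a filter, over 19356 genes, limma called 5 genes higher and 0 lower in hypoxia and 1 higher and 2 lower in 3D, with 0 members higher and 0 lower for culture, so the calls of MXI1, MXD4 and MGA were lost there. Over all genes, hypoxia calls (405 higher, 208 lower) came to 201 and 85 with equal upper quartiles and 254 and 112 without trend, and those lower to 475 with equal-sum rescaling and 313 when the mean had to reach 5 FPKM. Leaving out small RNA genes and genes listed at 0, an alternative chosen after seeing the data, gave 755 and 531, and MYC then passed for hypoxia (limma adjusted p = 0.0236), as it did with that stricter filter (0.0412). Culture calls (1313 higher, 1472 lower) came to 767 and 3132 with equal-sum rescaling, where 2 members fell, MYC with MGA (-0.54, limma adjusted p = 0.0273). At 1.5-fold in place of 2-fold, 3 members were higher in hypoxia in 3D, against 12.4% of all genes in both directions together. For 3D against 2D in normoxia 1 member was higher, against 18.8% of all genes in both directions. For 3D against 2D in hypoxia 2 were higher and 1 lower, against 20.8%. In that last pair, MXI1 passed 2-fold, making 1 member, with pseudocounts of 0.1 and 0.5 FPKM or equal upper quartiles. Of 265 values for single pairs, 5 changed sign, 4 with equal-sum rescaling (MXD3 and MNT) and 1 for the difference of the MXD4 responses, which is near 0. No paired analysis was possible because each group holds 1 library, and leaving out a library leaves no residual degree of freedom, so neither was run. Depth limits the lowest values: MXI1 in 3D normoxia rests on an estimated 56.1 fragments.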
